A study of Gloeophyllum trabeum and Trametes versicolor with 18 samples.

Results

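The transcriptional response of *Gloeophyllum trabeum* to high-melanin fungal necromass was measured against growth on glucose, in 3 libraries from high-melanin necromass and 3 from glucose, which are 6 of the 18 libraries of the series and were taken by fungus and carbon source from the labels. The high-melanin cultures were strain ATCC 11539, in culture for 7 days, in a mineral medium of known composition (Highley's) with 0.45% (w/v) high-melanin necromass. The glucose cultures were the same strain, medium and time with 1% (w/v) glucose, so the carbon sources differed in concentration as well as in kind. The other 12 libraries came from the same fungus on low-melanin necromass and from *Trametes versicolor*. The labels name 1 strain in liquid culture and not the fungus from which the necromass was made, and nothing in them says that replicate libraries are separate cultures. The p-values therefore rest on the spread between libraries, which may be partly technical.

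*G. trabeum* is a brown-rot fungus, a wood decayer known for removing cellulose and hemicellulose while leaving a modified lignin behind, with secreted hydrolases and small oxidants. Necromass is dead fungal biomass. Its cell walls hold chitin, glucans and proteins, and melanin, a dark polyphenolic pigment, coats and crosslinks them and is known to slow their decay. In filamentous fungi glucose commonly represses genes for the use of other carbon sources, and a change from glucose to a polymer is known to alter secreted enzymes, transporters and central metabolism. Neither the deposited tables nor the gene table used here pairs a *G. trabeum* identifier with a product or a sequence. Genes are therefore named by locus tag, no role is given to any of them, and levels, structure and neighbourhood are described instead.

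Depth was 20145635 to 25342327 estimated counts on high-melanin necromass and 19569518 to 21138281 on glucose. Mean fragment length was 248.9 to 269.1 bases on high-melanin necromass, lowest in replicate 3, and 264.2 to 316.9 bases on glucose, highest in replicate 1. Levels are given as CPM, counts scaled to the same total in each library with a correction for composition, and as TPM, which also corrects for length, where genes are compared with each other. Both are shares of a library's RNA. In whole mycelium, fewer cells that express a gene and less of its RNA per cell cannot be told apart.

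One library of high-melanin necromass stood apart from the rest of its group. Over the 6 libraries the leading principal component of log2 CPM, which separated the carbon sources, held 87.5% of the variance, and the next, with 6.52%, set high-melanin replicate 3 at 37.2 against -20.2 and -18.7 for replicates 1 and 2 and -2.09 to 4.68 for glucose. Replicate 3 was at least 2-fold above the mean of replicates 1 and 2 in 321 genes and at least 2-fold below it in 337, together 6.13% of 10728 genes. For replicates 1 and 2 the same measure gave 1.48% and 1.56%. The biological coefficient of variation, edgeR's estimate of the spread between libraries beyond counting, was 21.9% over the 3 high-melanin libraries, 11.7% without replicate 3 and 15.7% over the 3 glucose libraries. The glucose group was not uniform either: replicate 1 was at least 2-fold below the others in 296 genes and replicate 3 at least 2-fold above in 240, and 176 genes were in both sets.

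**Figure D1:**
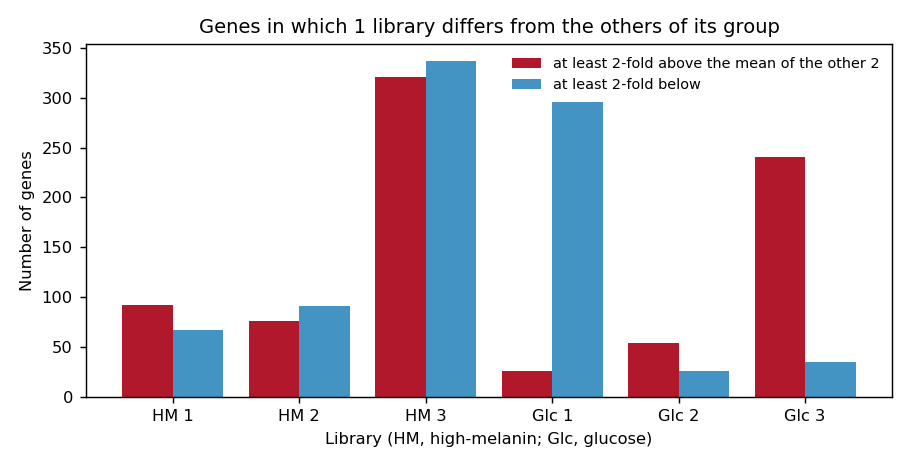
Number of genes (y axis) in which each library of high-melanin necromass (HM) or glucose (Glc) lay at least 2-fold above or below the mean log2 CPM of the other 2 libraries of its group. High-melanin replicate 3 has the highest bars, 321 and 337 genes, and the departures of glucose replicates 1 and 3 run mostly 1 way each.

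The response was broad and, with the TMM scaling used here, nearly even in direction. Of 10728 genes tested, 3180 (29.6%) rose and 3145 (29.3%) fell on high-melanin necromass relative to glucose at an adjusted p under 0.05 in edgeR's quasi-likelihood test, so that 59% of genes were called. At least 2-fold changes were called for 1701 higher genes (15.9%) and 1426 lower genes (13.3%). When the test itself asked for a change beyond 2-fold, 1032 genes (9.62%) were higher and 901 (8.4%) lower. Over all genes the median log2 fold change was 0.03, and the middle 50% of genes by rank lay between -0.54 and 0.64. The balance between directions depends on the scaling. Of the called genes 50.3% were higher with TMM, 55.9% with upper-quartile scaling and 57.1% with unscaled library sizes.

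The changed genes moved a large part of the RNA. The genes at least 2-fold higher held 32.3%, 30.8% and 37.1% of the estimated counts in high-melanin replicates 1 to 3, against 4.22%, 4.72% and 4.82% in glucose replicates 1 to 3. The genes at least 2-fold lower held 9.13%, 9.81% and 8.53% on high-melanin necromass, against 38.9%, 37.9% and 38% on glucose. A small part of each set carried much of this. The 134 genes at least 16-fold higher held 14.9%, 14.3% and 19.6% of counts on high-melanin necromass and 0.263% to 0.339% on glucose, while the 109 genes at least 16-fold lower held 0.248% to 0.354% on high-melanin necromass and 8.55% to 9% on glucose. These sets were chosen by the same comparison, so the shares describe its size and are no separate test. High-melanin replicate 3 had the highest share for the higher genes and the lowest for the lower genes.

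**Figure D2:**
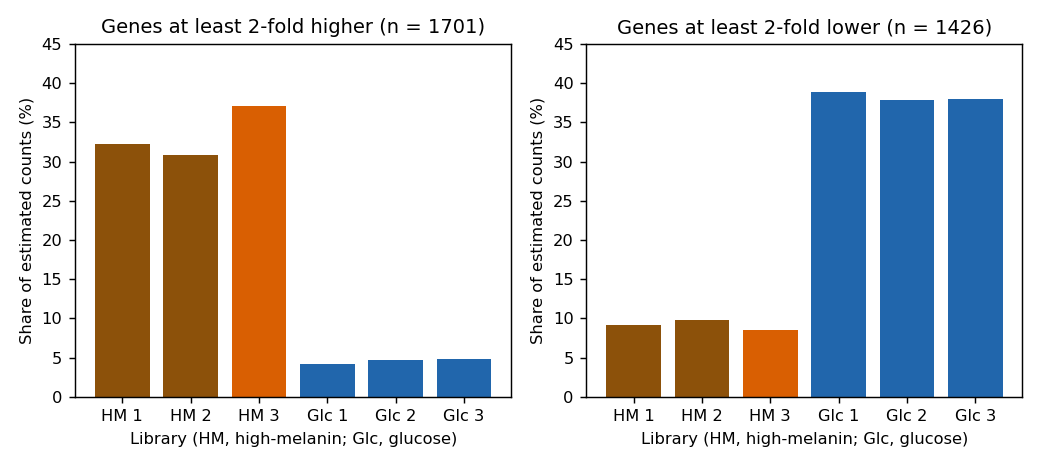
Share of each library's estimated counts (%, y axis) held by the genes called at least 2-fold higher (left) and at least 2-fold lower (right), for the 3 high-melanin (HM) and 3 glucose (Glc) libraries, 1 bar per library. The higher genes hold 30.8% to 37.1% on high-melanin necromass and the lower genes 37.9% to 38.9% on glucose.

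The largest changes were more numerous among the higher genes. Called changes of at least 8-fold were found in 266 higher and 218 lower genes, of at least 32-fold in 65 and 44, and of at least 64-fold in 39 and 13. Without high-melanin replicate 3 the same limits gave 243 and 236 genes, 59 and 48, and 36 and 20. Few genes were switched between near absence and a clear level. Of the 398 tested genes with a mean under 1 CPM on glucose, 147 were called higher and 7 of them reached a mean of 10 CPM on high-melanin necromass. Of the 289 genes with a mean under 1 CPM on high-melanin necromass, 45 were called lower and 2 of them had a mean of at least 10 CPM on glucose. Over all tested genes 29.6% were called higher and 29.3% lower. Both sets were chosen by a low level in 1 group of the same comparison, so these counts are a description only.

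The 8 genes with the largest increase rose by log2 fold changes of 8.15 to 8.96, and of 7.88 to 8.54 without high-melanin replicate 3. GLOTRDRAFT_127955, a 402-base transcript, stood at 3615, 3177 and 9632 CPM in high-melanin replicates 1 to 3, against 4.33, 13.8 and 14.9 CPM in glucose replicates 1 to 3. Its log2 fold change was 8.96 ± 0.69 (SE, adjusted p = 3.43e-06) with all libraries and 8.26 ± 0.52 (SE, adjusted p = 3.45e-06) without replicate 3. Replicate 3 was 2.84 times the mean of the other high-melanin libraries. GLOTRDRAFT_127957, also of 402 bases, stood at 830, 757 and 2878 CPM on high-melanin necromass and at 1.49, 3.33 and 4.68 CPM on glucose, with a log2 fold change of 8.88 ± 0.73 (SE) at an adjusted p of 4.89e-06, and of 7.96 without replicate 3. Both belong to transcripts among which counts were divided by sequence likeness, which leaves the level of each uncertain.

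GLOTRDRAFT_139455 had 1250, 673 and 2637 CPM on high-melanin necromass and 1.06, 4.48 and 5.06 CPM on glucose, a log2 fold change of 8.76 ± 0.75 (SE) at an adjusted p of 6.42e-06. GLOTRDRAFT_63180, with a longer transcript of 1258 bases, had 6439, 7497 and 11399 CPM on high-melanin necromass and 9.05, 24.8 and 27.2 CPM on glucose, a log2 fold change of 8.70 ± 0.56 (SE) at an adjusted p of 9.78e-07. GLOTRDRAFT_127716 had 6385, 7028 and 16581 CPM on high-melanin necromass and 12, 28.9 and 32.9 CPM on glucose, a log2 fold change of 8.67 ± 0.59 (SE) at an adjusted p of 1.43e-06. In these genes too high-melanin replicate 3 was the highest library of its group and glucose replicate 1 the lowest of its own. Without that high-melanin library GLOTRDRAFT_139455 stood at a log2 fold change of 8.08 and GLOTRDRAFT_127716 at 8.07. GLOTRDRAFT_107452 had 834, 1046 and 2682 CPM on high-melanin necromass and 3.32, 4.01 and 4.47 CPM on glucose, with a log2 fold change of 8.59 ± 0.80 (SE) at an adjusted p of 1.11e-05, and of 7.88 without replicate 3.

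GLOTRDRAFT_82308 went against that order: its 2442, 2229 and 1517 CPM on high-melanin necromass put replicate 3 lowest, and its glucose values were 2.79, 6.56 and 9.26 CPM. It had the smallest adjusted p of the 8, 4.86e-07, with a log2 fold change of 8.38 ± 0.47 (SE), and it was the largest of the 8 without replicate 3, at 8.54. GLOTRDRAFT_138715 had 4334, 3391 and 4846 CPM on high-melanin necromass and 6.06, 18.2 and 19.9 CPM on glucose, a log2 fold change of 8.15 ± 0.50 (SE) at an adjusted p of 7.02e-07. High-melanin replicate 3 lay above both other libraries of its group in 7 of these 8 genes, and glucose replicate 1 was the lowest glucose library in all 8. The adjusted p of these 8 genes stayed at or below 2.3e-05 without high-melanin replicate 3.

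**Figure D3:**
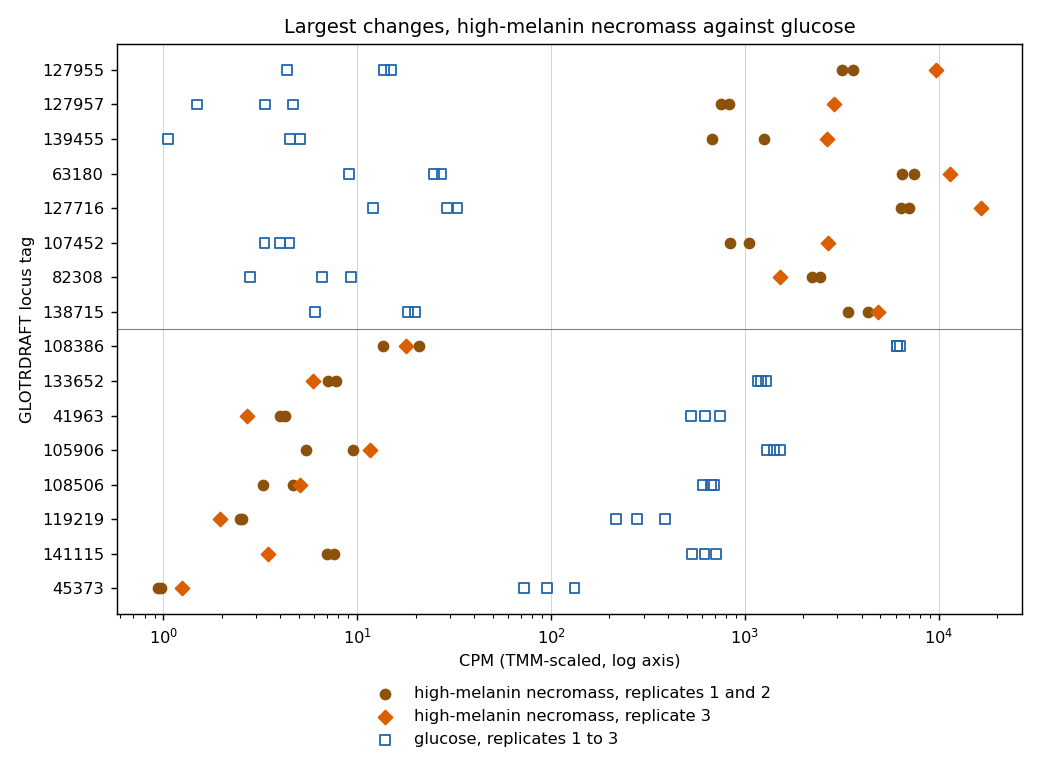
CPM on a log axis (x) of the 8 genes with the largest increase (upper part) and the 8 with the largest decrease (lower part), 1 row per GLOTRDRAFT locus tag and 1 point per library. The genes were chosen without overlap between groups, which 65.7% of all tested genes share, and high-melanin replicate 3, the diamond, lies to the right of the other high-melanin libraries in 7 of the upper 8 rows.

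Transcripts of 402 bases recur among the strongest increases. The tables hold 15 transcripts of that length, of which 12 passed the filter on low counts, 7 were called higher and 1 lower, and 5 rose by at least 64-fold. Over all 10728 genes 29.6% were called higher and 29.3% lower, and 39 rose by at least 64-fold. The 5 had log2 fold changes of 7.26 to 8.96, and of 6.84 to 8.26 without high-melanin replicate 3. Together they held 9.05%, 9.11% and 17.4% of the TPM of high-melanin replicates 1 to 3, against 0.0233%, 0.0501% and 0.0553% in glucose replicates 1 to 3. GLOTRDRAFT_127948 was the most abundant transcript on high-melanin necromass, at 42207, 43064 and 73430 TPM, against 133, 288 and 318 TPM on glucose, where it ranked 671. GLOTRDRAFT_127716 ranked 2, with 26593, 28659 and 54295 TPM on high-melanin necromass and 52.4, 114 and 130 TPM on glucose. GLOTRDRAFT_127955 ranked 3, with 15055, 12955 and 31539 TPM on high-melanin necromass and 18.8, 54.2 and 58.4 TPM on glucose. High-melanin replicate 3 was the highest library for each, and TPM adjusts for the effective length in each library. Mean fragment length was shortest in high-melanin replicate 3, the highest library for all 5, and longest in glucose replicate 1, the lowest. High-melanin replicates 1 and 2 had 269.1 and 263.6 bases, and glucose replicates 2 and 3 had 264.2 and 268.0 bases. These lengths were compared after the levels were seen, and the part of fragment length in the levels was not tested. With fragment length as a covariate the log2 fold changes were 8.22 for GLOTRDRAFT_127955, 8.13 for GLOTRDRAFT_127957, 8.04 for GLOTRDRAFT_127716, 7.26 for GLOTRDRAFT_127948 and 7.04 for GLOTRDRAFT_127958. The other called transcripts of this length changed less, GLOTRDRAFT_132559 by a log2 fold change of 4.82, GLOTRDRAFT_37701 by 1.13 and GLOTRDRAFT_45115 by -0.30 (adjusted p = 0.048 in edgeR's test, and 0.0526 without high-melanin replicate 3). The length was singled out after its values were seen.

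Of these 5 transcripts 4 lie close together in the gene table. GLOTRDRAFT_127948 is followed, with GLOTRDRAFT_74492 and GLOTRDRAFT_127950 between, by GLOTRDRAFT_99466, GLOTRDRAFT_127955, GLOTRDRAFT_74495, GLOTRDRAFT_127957 and GLOTRDRAFT_127958. GLOTRDRAFT_99466, with a transcript of 522 bases in a gene spanning 6833, rose with them, at 1387, 1193 and 3167 CPM on high-melanin necromass and 5.92, 11.7 and 13 CPM on glucose, a log2 fold change of 7.56 ± 0.51 (SE) at an adjusted p of 1.36e-06. GLOTRDRAFT_127958 had 768, 820 and 1557 CPM on high-melanin necromass and 4.96, 8.23 and 7.35 CPM on glucose, a log2 fold change of 7.26 ± 0.57 (SE) at an adjusted p of 3.56e-06. The genes between them did not share the size of the change. GLOTRDRAFT_74495 rose by a log2 fold change of 1.31, GLOTRDRAFT_127950 by 0.59 (adjusted p = 0.0296 in edgeR's test, and 0.0915 without high-melanin replicate 3), and GLOTRDRAFT_74492 had -0.35 (adjusted p = 0.404). The gene after the last of them, GLOTRDRAFT_127959, fell, with 21.5, 13.8 and 41.9 CPM on high-melanin necromass and 342, 422 and 498 CPM on glucose. Counts of GLOTRDRAFT_127948, GLOTRDRAFT_99466, GLOTRDRAFT_127955 and GLOTRDRAFT_127957 were divided between similar transcripts. The split between these transcripts is uncertain.

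**Figure D4:**
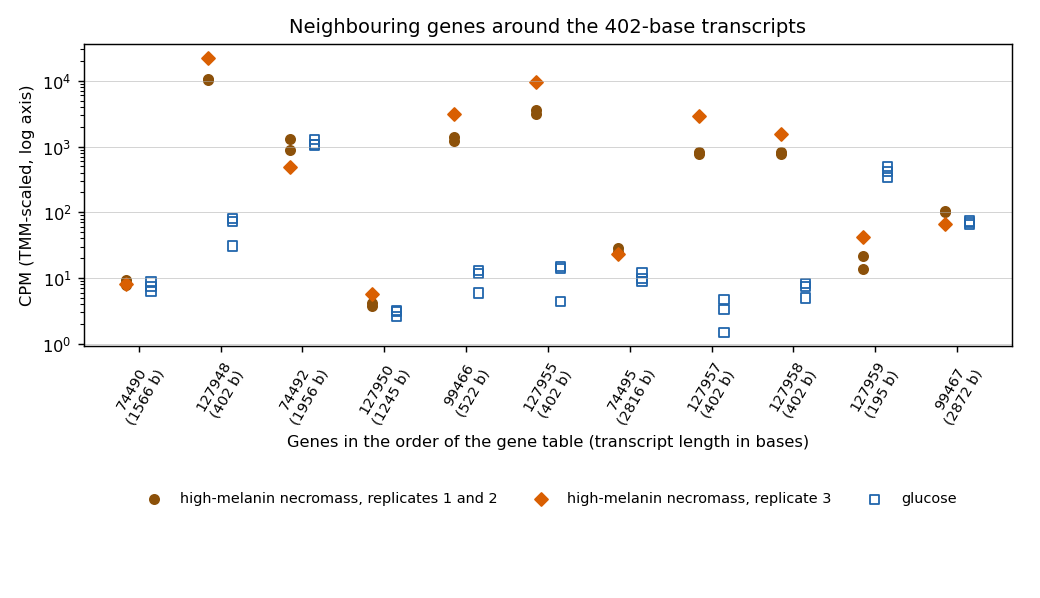
CPM on a log axis (y) of 11 genes in the order of the gene table (x), with transcript lengths in bases under the locus tags and 1 point per library of high-melanin necromass and of glucose. The 4 transcripts of 402 bases and the 522-base transcript lie far higher on high-melanin necromass, while the groups overlap in GLOTRDRAFT_74490, GLOTRDRAFT_74492 and GLOTRDRAFT_99467 next to them.

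Other genes gained more in absolute level than in ratio. GLOTRDRAFT_127948 had 10134, 10560 and 22425 CPM on high-melanin necromass and 30.7, 73 and 81 CPM on glucose, a log2 fold change of 7.87 ± 0.55 (SE) at an adjusted p of 1.57e-06. GLOTRDRAFT_61365 had 11595, 12294 and 6771 CPM on high-melanin necromass and 477, 396 and 542 CPM on glucose, a log2 fold change of 4.44 ± 0.29 (SE) at an adjusted p of 9.93e-07. It already ranked 330 by TPM on glucose and ranked 9 on high-melanin necromass, and here replicate 3 was the lowest library of its group. Its counts were divided between similar transcripts. GLOTRDRAFT_110634 had 5071, 5004 and 7815 CPM on high-melanin necromass and 185, 243 and 155 CPM on glucose, a log2 fold change of 4.94 ± 0.38 (SE) at an adjusted p of 2.96e-06. GLOTRDRAFT_139980 had 5625, 3730 and 7631 CPM on high-melanin necromass and 30.9, 48.6 and 56.1 CPM on glucose, a log2 fold change of 6.97 ± 0.49 (SE) at an adjusted p of 1.71e-06.

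The 8 genes with the largest decrease fell by 6.57 to 8.47 on the log2 scale, and their libraries lay closer together. GLOTRDRAFT_108386 had 20.9, 13.6 and 17.9 CPM on high-melanin necromass and 6319, 6118 and 6105 CPM on glucose, a log2 fold change of -8.47 ± 0.25 (SE) at an adjusted p of 2.38e-08, and of -8.50 without high-melanin replicate 3. By TPM it ranked 7286 on high-melanin necromass and 17 on glucose. GLOTRDRAFT_133652 had 7.05, 7.75 and 5.94 CPM on high-melanin necromass and 1166, 1286 and 1216 CPM on glucose, a log2 fold change of -7.46 ± 0.30 (SE) at an adjusted p of 7.75e-08. GLOTRDRAFT_41963, whose transcript of 681 bases spans the whole gene, had 4.26, 4.01 and 2.71 CPM on high-melanin necromass and 620, 529 and 747 CPM on glucose, a log2 fold change of -7.43 ± 0.38 (SE) at an adjusted p of 2.88e-07. In each the high-melanin libraries differed among themselves by far less than from glucose, which the choice of large changes without overlap largely fixed.

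GLOTRDRAFT_105906 had 9.46, 5.47 and 11.6 CPM on high-melanin necromass and 1521, 1407 and 1301 CPM on glucose, a log2 fold change of -7.32 ± 0.30 (SE) at an adjusted p of 8.16e-08. GLOTRDRAFT_108506 had 4.64, 3.26 and 5.06 CPM on high-melanin necromass and 693, 670 and 604 CPM on glucose, a log2 fold change of -7.25 ± 0.20 (SE), with the smallest adjusted p of the 16 genes with the largest changes, 2.01e-08. GLOTRDRAFT_119219 had 2.55, 2.47 and 1.95 CPM on high-melanin necromass and 216, 387 and 277 CPM on glucose, a log2 fold change of -6.97 ± 0.34 (SE) at an adjusted p of 2.04e-07, and its counts were divided between similar transcripts. GLOTRDRAFT_141115 and GLOTRDRAFT_45373 completed the set with log2 fold changes of -6.69 ± 0.65 and -6.57 ± 0.29 (SE). High-melanin replicate 3 was the highest library of its group in 3 of the 8 genes and the lowest in 4. Without it the 8 log2 fold changes ran from -8.50 to -6.43.

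Genes that lost the most in absolute level included some in which high-melanin replicate 3 fell much further than the others. GLOTRDRAFT_139783 had 99.8, 123 and 47.9 CPM on high-melanin necromass and 6962, 6829 and 6221 CPM on glucose, a log2 fold change of -6.21 ± 0.39 (SE) at an adjusted p of 8.38e-07, with counts divided between similar transcripts. GLOTRDRAFT_79159 had 176, 331 and 8.29 CPM on high-melanin necromass and 4364, 4601 and 5896 CPM on glucose, a log2 fold change of -4.85 ± 0.99 (SE) at an adjusted p of 0.00199 with all libraries, -5.76 without replicate 2 and -4.31 ± 0.37 (SE, adjusted p = 1.24e-05) without replicate 3. Most of the spread of this gene on high-melanin necromass lay in replicate 3. GLOTRDRAFT_60667 had 1784, 2113 and 952 CPM on high-melanin necromass and 6711, 5355 and 6324 CPM on glucose, a log2 fold change of -1.92 ± 0.31 (SE) at an adjusted p of 0.000473. GLOTRDRAFT_138566 had 300, 192 and 306 CPM on high-melanin necromass and 3864, 3806 and 4223 CPM on glucose, a log2 fold change of -3.90 ± 0.31 (SE) at an adjusted p of 3.79e-06.

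The 3 most abundant transcripts on glucose by TPM were all short and were all lower on high-melanin necromass in mean level. Their choice by level on glucose favours that direction, which is therefore a description only. GLOTRDRAFT_134131, of 198 bases, had 6742, 7088 and 4649 TPM on high-melanin necromass and 34939, 12641 and 15228 TPM on glucose. Its log2 fold change of -1.80 ± 0.85 (SE) was not called (adjusted p = 0.0946), nor without high-melanin replicate 3 (adjusted p = 0.193), and was called in a fit of only the 6 libraries (adjusted p = 0.00704, the lowest over its alternatives, of which the highest was 0.436). In that fit without high-melanin replicate 3 it was also called (adjusted p = 0.0417). Leaving out glucose replicate 1 made its log2 fold change -1.14. GLOTRDRAFT_19724, of 243 bases, had 885, 1590 and 85.1 TPM on high-melanin necromass and 23453, 18269 and 20930 TPM on glucose, and fell by 4.64 on the log2 scale (SE 0.79, adjusted p = 0.00067). Without high-melanin replicate 3, the lowest library, its log2 fold change was -4.13 (SE 0.37, adjusted p = 1.67e-05), and without replicate 2 it was -5.48. GLOTRDRAFT_33811, of 321 bases, had 5928, 7643 and 5926 TPM on high-melanin necromass and 17762, 13908 and 20913 TPM on glucose, and fell by 1.36 on the log2 scale (SE 0.22, adjusted p = 0.00039), a call not made when a change beyond 2-fold was tested (adjusted p = 0.0916). It remained abundant, ranking 14 on high-melanin necromass, whereas GLOTRDRAFT_19724 ranked 137. TPM of transcripts near or below the mean fragment length rests on a small effective length, so their rank is uncertain.

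Leaving out high-melanin replicate 3 raised the number of lower calls more than it reduced that of higher calls, and a larger share of the lower calls was kept. Without it 3149 genes (29.3%) were higher and 3368 (31.3%) lower among 10748 tested, 60.6% in all. By at least 2-fold 1602 (14.9%) and 1505 (14%) were so. Of the 3180 genes called higher with it, 2872 (90.3%) were also called higher without it, 308 lost the call and 274 others gained it. Of the 3145 genes called lower with it, 3020 (96%) were also called lower without it, 125 lost the call and 345 others gained it. None of the genes called with replicate 3 was called in the opposite direction without it. The lost calls were mostly small changes, with median absolute log2 fold changes of 0.603 among higher and 0.441 among lower genes, against 1.13 and 0.947 for the calls kept. Lost calls of at least 2-fold numbered 49 among higher genes and 5 among lower genes.

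The sizes of the called changes moved by a median of 0.0917 on the log2 scale, and by more than 1 in 5 of 6325 genes, each toward a higher value with replicate 3. The median SE of the called genes was 0.166 with replicate 3 and 0.156 without it. GLOTRDRAFT_140585, named after its values were seen as the lost higher call with the largest fold change, had 4.96, 4.64 and 38.1 CPM on high-melanin necromass and 2.36, 3.7 and 4.26 CPM on glucose. Its log2 fold change was 2.21 (adjusted p = 0.0286) with replicate 3 and 0.47 (adjusted p = 0.164) without it. The point farthest from the line of equal values, GLOTRDRAFT_133544, was a low gene with divided counts, at 0, 0 and 1.73 CPM on high-melanin necromass and 0.626, 0.886 and 0.426 CPM on glucose. Its fitted value without replicate 3 rests on high-melanin libraries at 0 counts and is not read as a size.

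**Figure D5:**
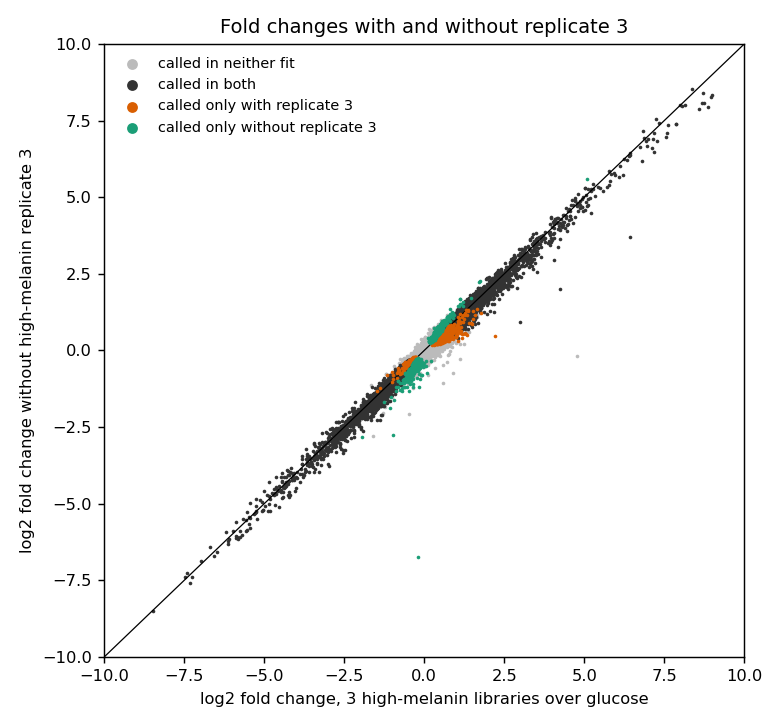
Log2 fold change of each gene on high-melanin necromass over glucose with all 3 high-melanin libraries (x axis) and without replicate 3 (y axis), 1 point per gene, coloured by the fits in which it was called, with the line of equal values. Calls lost without replicate 3 have median absolute log2 fold changes of 0.603 for higher and 0.441 for lower genes, with 49 and 5 of at least 2-fold, and a few genes such as GLOTRDRAFT_44122 lie far below the line.

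The position of each high-melanin library was also read against calls made without it. The same glucose libraries served the calls and the comparison, so the match is not independent of them. Of 3146 genes called higher without replicate 3, that library lay above all 3 glucose libraries in 2851 (90.6%) and below all 3 in 130 (4.13%). Of 3365 called lower, it lay below all glucose libraries in 3082 (91.6%) and above all in 91 (2.7%). Over all genes replicate 3 lay above every glucose library in 43.4% and below every one in 43.5%. Calls without replicate 1 took in 27.3% of genes as higher and 27.3% as lower, 54.6% together, and calls without replicate 2 took in 26.5% and 27.7%. Replicates 1 and 2, each read against calls made without it, matched in 97.5% and 98.5% of higher genes and in 98.4% and 98.5% of lower genes. For changes of at least 2-fold, replicate 3 matched in 96.6% of 1599 higher and 97.9% of 1502 lower genes, and lay beyond glucose on the opposite side in 18 and 8.

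The overall size of the response was much the same in the 3 libraries. For the genes called at least 2-fold higher without replicate 3, the median log2 difference from the glucose mean was 1.72 and 1.70 in replicates 1 and 2, which made the calls, and 1.76 in replicate 3. For the genes called at least 2-fold lower it was -1.70 and -1.56 in replicates 1 and 2 and -1.54 in replicate 3. Gene by gene replicate 3 was less even. Among those higher genes it was the farthest of the 3 from glucose in 44.2% and the nearest in 39.1%, and among the lower genes it was the farthest in 31.1% and the nearest in 52.2%.

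The genes in which replicate 3 departed from its group were partly called against glucose without it and partly not. Of the 321 genes in which it lay at least 2-fold above replicates 1 and 2, 96 were called higher and 100 lower than on glucose without it, or 29.9% and 31.2%, near the 29.3% and 31.3% of all genes. Of the 337 genes in which it lay at least 2-fold below, 137 (40.7%) were called higher and 57 (16.9%) lower. With replicate 3 in the fit 120 and 54 of the 321 genes, and 66 and 60 of the 337, were called higher and lower, against 29.6% and 29.3% of all genes. Since replicate 3 chose these genes, that shift follows from the choice. The choice also used replicates 1 and 2, on which the calls without replicate 3 rest. It favours genes high in those libraries among the 337 and low in them among the 321. The shares called without replicate 3 are therefore no separate result either. The 321 genes held 4.84%, 4.57% and 11.4% of scaled counts in high-melanin replicates 1 to 3 and 1.94% to 2.34% on glucose. The 337 genes held 3.81%, 3.93% and 1.44% on high-melanin necromass and 6.59% to 7.14% on glucose.

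Short transcripts were frequent among those raised in replicate 3. The median transcript length was 618 bases for the 321 genes and 1038 for the 337, against 1222 over all tested genes. Both sets also had low levels, with medians of 5.81 and 15.4 CPM on glucose against 33.2 over all tested genes. Coding transcripts were put in 4 classes of equal number by length. In the class of the shortest replicate 3 lay at least 2-fold above replicates 1 and 2 in 6.99% of genes and at least 2-fold below in 4.5%. For the longest these shares were 0.448% and 3.47%. The median log2 difference of replicate 3 was 0.25 in the class of the shortest and -0.22 in the class of the longest. The same medians were -0.20 and 0.13 for high-melanin replicate 1 and -0.04 and 0.07 for replicate 2, each against a mean that includes replicate 3. Fragment length was 248.9 bases in replicate 3, against 269.1 and 263.6 in replicates 1 and 2. Glucose replicate 1, at 316.9 bases against 264.2 and 268.0, had medians of 0.01 and -0.01 in these classes. The part of fragment length in the departure was not tested.

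Genes that departed most in replicate 3 included neighbours. GLOTRDRAFT_134011 had 1.58, 2.55 and 187 CPM on high-melanin necromass and 0, 6.2 and 0.852 CPM on glucose, with counts divided between similar transcripts. Its log2 fold change was 4.77 with replicate 3 (not called, adjusted p = 0.0545) and -0.17 without it. GLOTRDRAFT_44122, of 339 bases, had 6.49, 3.15 and 84.8 CPM on high-melanin necromass and 0.433, 0.313 and 0.319 CPM on glucose. GLOTRDRAFT_44256, of 333 bases and next to it in the gene table, had 25.1, 14.5 and 231 CPM on high-melanin necromass and 4.33, 4.74 and 5.38 CPM on glucose. Both lay above glucose in every high-melanin library, with log2 fold changes of 6.44 and 4.23 with replicate 3 and 3.71 and 2.02 without it. The next gene in the table, GLOTRDRAFT_130577 of 321 bases, shared the pattern, with 36.9, 25.6 and 320 CPM on high-melanin necromass and 17.6, 15.2 and 15.5 CPM on glucose. Its log2 fold change was 2.99 with replicate 3 and 0.94 without it.

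In the other direction GLOTRDRAFT_57749 had 1777, 3373 and 57.7 CPM on high-melanin necromass and 2431, 1271 and 963 CPM on glucose, so that the groups overlapped with and without replicate 3, and its log2 fold changes of 0.16 and 0.71 were not called (adjusted p = 0.898 and 0.218). GLOTRDRAFT_111047 had 33.5, 61.8 and 3.10 CPM on high-melanin necromass and 13.9, 16.8 and 25.3 CPM on glucose, with counts divided between similar transcripts. It was called only without replicate 3, at a log2 fold change of 1.33 (adjusted p = 0.0273), against 0.82 with it (adjusted p = 0.38). GLOTRDRAFT_79159, described above, was the remaining gene of this kind. All these were chosen for the departure of replicate 3, which is given as a description.

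Changed genes often had a neighbour that changed the same way. Scaffold names are absent from the gene table. A border was therefore set wherever the start position dropped, which gave 259 blocks and 10261 pairs of adjacent tested coding genes. After a gene at least 2-fold higher, the next gene was at least 2-fold higher in 26.1% of 1620 pairs and at least 2-fold lower in 10.3%, while 15.8% of tested coding genes were higher and 13.3% lower by that measure. After a gene at least 2-fold lower, the next was lower in 22.6% of 1371 pairs. Runs of 3 or more consecutive genes numbered 85 for higher genes, holding 288 genes, and 62 for lower genes, holding 224. Strand is not stated for the counting, so overlapping neighbours may share reads. Runs of 5 or more numbered 7 in each direction.

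The longest run held 10 lower genes, from GLOTRDRAFT_131251 to GLOTRDRAFT_45763. Their summed level was 578, 733 and 564 CPM on high-melanin necromass and 5349, 5487 and 5444 CPM on glucose, with a median log2 fold change of -2.79, and of -2.81 without replicate 3. Within it GLOTRDRAFT_45763 changed most, with 41.6, 62.9 and 38.4 CPM on high-melanin necromass and 1311, 1421 and 1410 CPM on glucose, a log2 fold change of -4.86 (adjusted p = 4.81e-06). GLOTRDRAFT_139944 in the same run had 72.2, 96.3 and 81 CPM on high-melanin necromass and 1008, 1020 and 912 CPM on glucose. The smallest change of the run, that of GLOTRDRAFT_45532, was -1.68. A run of 8 lower genes, from GLOTRDRAFT_117484 to GLOTRDRAFT_112083, summed to 272, 267 and 301 CPM on high-melanin necromass and 934, 918 and 920 CPM on glucose. A run of 7 lower genes, from GLOTRDRAFT_10171 to GLOTRDRAFT_121179, summed to 61.7, 91.4 and 75.5 CPM on high-melanin necromass and 600, 630 and 579 CPM on glucose.

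Among higher genes the longest runs held 7. In the run from GLOTRDRAFT_137907 to GLOTRDRAFT_38812 the summed level was 5460, 5463 and 6324 CPM on high-melanin necromass and 81.9, 293 and 110 CPM on glucose. Most of it lay in GLOTRDRAFT_137908, with 3322, 3695 and 3826 CPM on high-melanin necromass and 11.9, 89.1 and 25.8 CPM on glucose (log2 fold change 6.42, adjusted p = 3.97e-05), and in GLOTRDRAFT_137907, with 1481, 1377 and 1898 CPM on high-melanin necromass and 36.6, 159 and 35.5 CPM on glucose (log2 fold change 4.37, adjusted p = 0.00013). In both, glucose replicate 2 was the highest glucose library, and the high-melanin libraries lay close together. Counts of GLOTRDRAFT_137908 were divided between similar transcripts. The other run of 7 holds GLOTRDRAFT_44122, GLOTRDRAFT_44256 and GLOTRDRAFT_130577, and its sum of 374, 293 and 1074 CPM on high-melanin necromass, against 56.7, 46.4 and 54.7 CPM on glucose, was raised in replicate 3. With fragment length as a covariate these 3 genes were not called (adjusted p = 0.0537, 0.0572 and 0.119), which would break the run. Without replicate 3 GLOTRDRAFT_130577, the last gene of the run, had a log2 fold change of 0.94, under the 2-fold limit. A run of 5 ends with the abundant GLOTRDRAFT_61365, next to which GLOTRDRAFT_111225 had 1177, 1343 and 705 CPM on high-melanin necromass and 73.4, 75.3 and 64.8 CPM on glucose (log2 fold change 3.92, adjusted p = 9.63e-07). In both genes of this pair replicate 3 was the lowest high-melanin library. The first gene of that run, GLOTRDRAFT_116290, had a log2 fold change of 1.15 with replicate 3 and 0.92, under the 2-fold limit, without it. The runs were named after their values were seen.

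Lower genes were the more abundant set. When genes were put in 4 classes of equal number by mean level, 26.6% of the highest class were called higher and 43.7% lower, and 32.1% and 13.8% of the lowest. Genes at least 2-fold higher had a median of 44.6 CPM on high-melanin necromass and 10.8 CPM on glucose, and genes at least 2-fold lower a median of 27 CPM on high-melanin necromass and 106 CPM on glucose. Structure differed less. Median transcript length was 1198 bases for the higher set, 1178 for the lower set and 1223 over all tested coding genes. Transcripts as long as their gene span, and so without an intron in the table, made up 6.95% of the higher set, 5.96% of the lower set and 6.87% of all. Transcripts with divided counts were 13.5% of the higher set, 10.3% of the lower set and 13.2% of all. Of 127 tRNA-type identifiers 5 passed the filter, with 2 called higher and 1 lower, near the 59% called over all genes. Their summed counts were 186, 206 and 425 on high-melanin necromass and 185, 148 and 170 on glucose, the highest being again in high-melanin replicate 3.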

How the data were processed

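Extraction used TRIzol and a PureLink kit, and library preparation a NEBNext Ultra II RNA kit, per the labels' protocols. kallisto 0.51.1 and DESeq2 1.48.2 are named in the submitters' processing notes. The authors deposited 1 table per library of estimated counts, in which kallisto shares ambiguous reads out over transcripts of similar sequence. The same deposited tables give TPM values, used only to rank levels between genes, and transcript and effective lengths. The transcript set and build are not given in the sources used here. All 11880 identifiers matched a gene table of assembly Glotr1_1, used for locus tags, gene spans and gene order only.

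Estimated counts were rounded. Genes were filtered with filterByExpr and scaled with TMM, and all 9 *G. trabeum* libraries were fitted together in edgeR 4.0.16 (R 4.3.3, glmQLFit and glmQLFTest, robust) with no term but carbon source. The 3 low-melanin libraries entered the filter, the scaling and the spread, and not the contrast. An SE therefore draws on the spread of all 9 libraries and not only of the groups shown. A call is an adjusted p under 0.05 (Benjamini-Hochberg, over every gene of the fit). SE is the absolute log2 fold change over the root of F. Log2 CPM used a prior count of 2. DESeq2 1.42.0 and limma 3.58.1 served as alternatives. The members of the comparison and the rules were chosen with earlier results of these data known. Genes named are the 8 each way with the largest change among those called with and without high-melanin replicate 3, without overlap and with at least 10 CPM in the higher group, then the 4 each way with the largest difference in CPM, the 3 each way in which that replicate departed most, and the 3 most abundant per group. The gene lists by product or protein signature, their alternatives and the promoter motifs could not be made, because no product names or sequences were given. Transcripts with divided counts are those whose estimate missed the nearest whole number by over 0.01 in at least 1 of the 9 libraries. *T. versicolor* was not analysed here.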

Additional observations from a re-analysis of the deposited data

How the results depend on the processing

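Over 20 alternatives the counts of called genes moved by more than 1.5 times only in the test beyond 2-fold, with 1032 higher and 901 lower. Leaving out 1 high-melanin or glucose library gave 2666 to 3149 higher and 2858 to 3368 lower genes, and 1590 to 1749 and 1420 to 1505 by at least 2-fold. No gene called with all libraries was called in the opposite direction under any of the 20. Of the called genes 50.3% were higher with TMM. Upper-quartile scaling made this 55.9% and unscaled library sizes 57.1%, and set the median over all genes at 0.11 and 0.13 in place of 0.03 (log2). Fragment length as a covariate called 5614 genes, kept 85.7% of the calls and ended those of GLOTRDRAFT_44122 and GLOTRDRAFT_44256 (adjusted p = 0.0537 and 0.0572). GLOTRDRAFT_44122 was also lost in limma-voom (adjusted p = 0.0587), where its alternatives ran between 5.58e-07 and 0.0587, and those of GLOTRDRAFT_44256 between 4.28e-05 and 0.0572. GLOTRDRAFT_134011 was called without high-melanin replicate 1 or 2 (adjusted p = 0.0325 and 0.0342) and turned to -0.17 and -0.15 without replicate 3, in the fit with and without the low-melanin libraries. Leaving out 1 library gave it -0.17 to 7.24, GLOTRDRAFT_57749 -0.77 to 0.71 and GLOTRDRAFT_111047 -0.05 to 1.33. GLOTRDRAFT_57749, never called, turned to -1.05 in limma-voom, -0.77 without high-melanin replicate 2, -0.10 without glucose replicate 3 and -0.41 with the replicate block. GLOTRDRAFT_111047 turned to -0.05 without high-melanin replicate 2. The cause was not tested. The shared replicate numbers showed no clear pairing: same-numbered libraries deviated with correlations of 0.08, -0.14 and -0.05, and only number 1 of 3 correlated best with its own. Deviations from means of 3 libraries cannot exclude a pairing. The replicate block called 2936 higher and 2943 lower genes, 1678 and 1429 by at least 2-fold. All 24 genes with the largest changes in ratio or level were called under every alternative that tested them. They were chosen as large called changes in these same libraries, so this was largely fixed by the choice.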
